A study of Homo sapiens with 16 samples.

Results

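EGFR, the receptor for epidermal growth factor, was followed together with its relatives ERBB2 and ERBB3, with the ligands AREG, EREG, HBEGF, TGFA, BTC and NRG1, and with ERRFI1, an inhibitor that binds the receptors inside the cell. These 10 genes were chosen by gene symbol for their role in 1 signaling pathway, and they are 10 of the 60620 gene identifiers shared by all count tables. RNA sequencing was performed on 16 libraries of MDA-MB-231, a line of human breast cancer cells of the triple-negative kind. Unedited cells are called parental 231, and 231:TKO cells are MDA-MB-231 cells from which TXNIP, an α-arrestin that limits glucose uptake, was deleted by CRISPR/Cas9. The labels do not say whether the untreated and the siRNA-treated 231:TKO cells came from the same clone. The 231:TKO cells were cloned from single cells, so a difference between 231:TKO and parental 231 and a difference between a clone and its mixed parent cannot be told apart.

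The 6 conditions were parental 231 without siRNA (2 replicates), 231:TKO without siRNA (2 replicates), and parental 231 or 231:TKO cells given a non-targeting siRNA (siNT) or an siRNA against Myc (siMyc) for 48 hours (3 replicates each). All cells grew in the same medium with serum. Each library is a bulk sample, in which fewer expressing cells and less RNA per cell cannot be told apart.

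Receptors of the EGFR family sit in the plasma membrane, pair when a ligand binds, and switch on the RAS, MAP kinase and PI3 kinase pathways. Most ligands are made as membrane proteins and are cut loose by proteases of the ADAM family. AREG, EREG, HBEGF, TGFA and BTC bind EGFR, NRG1 binds ERBB3, and ERBB2 has no ligand of its own and serves as a partner. The pathway induces its own brakes, among them ERRFI1 (also called MIG6), the dual-specificity phosphatases and the Sprouty proteins.

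Total counts lay between 18953668 and 59799444 per library. Single reads were counted in the untreated libraries and read pairs in the others. The parental 231 libraries with siRNA carry the leading number 19208 in the count headers and the 231:TKO libraries with siRNA 18604. The labels do not say what this number stands for. The former were also counted on a later annotation release than the latter. The difference between 231:TKO and parental 231 with siRNA and any difference that goes with this number or release cannot be told apart. Levels in single libraries are given as CPM, the counts of a gene divided by the library total and scaled alike in all libraries. TXNIP lay at 293 and 295 CPM in untreated parental 231 and at 12.4 and 46.0 in untreated 231:TKO. With siRNA, TXNIP lay between 288 and 445 CPM in parental 231 and between 6.76 and 10.3 in 231:TKO. MYC lay between 59.2 and 64.9 CPM in the 6 siMyc libraries and between 122 and 148 in the 6 siNT libraries. The untreated 231:TKO replicates stood apart from each other, with 492 of 12658 genes differing by more than 1 on the log2 scale, against 3 of 12813 between the untreated parental 231 replicates. Parental 231+siNT replicate 1 and parental 231+siMyc replicate 3 also stood apart from their groups, with 219 and 143 genes off by more than 1 on the log2 scale, against 0 to 24 in each of the other 10 siRNA libraries, and the deviations of these 2 libraries from their group means correlated across 13399 genes that are not independent (Pearson's r = 0.90, members left out). Of the markers, VIM, CD44, ZEB1 and CAV1 of mesenchymal cells were detected in all libraries, PGR was at 0 in 13, and KRT8 and KRT18 of luminal cells were present at 240 to 1818 and 193 to 676 CPM. CD3E of lymphocytes was at 0 in 14 libraries and DCN of fibroblasts in 13, while CD14 of monocytes ran from 0.434 to 25.1 CPM, COL1A1 of fibroblasts from 4.24 to 19.3 and LUM of fibroblasts from 0 to 8.56. The 4 fibroblast markers summed to 7.84 to 9.02 CPM in parental 231 and 5.35 to 5.48 in 231:TKO, to 17.9 to 22.5 and 8.92 to 11.2 with siNT, and to 24.4 to 26.9 and 12.7 to 14.6 with siMyc. The 4 blood markers summed to 2.70 to 2.95 and 0.501 to 0.902 CPM untreated, to 14.3 to 18.4 and 4.60 to 4.80 with siNT, and to 21.3 to 25.6 and 8.02 to 10.2 with siMyc. The 11 luminal markers summed to 575 to 579 CPM in parental 231 and 594 to 615 in 231:TKO. With siNT they summed to 1959 to 2327 and 1205 to 1287, and with siMyc to 2263 to 2773 and 1313 to 1540. The 4 mesenchymal markers summed to 5536 to 5540 CPM in parental 231 and 5016 to 5061 in 231:TKO. With siNT they summed to 3722 to 3938 and 3554 to 3714, and with siMyc to 4048 to 4205 and 3703 to 3768. All these lists thus moved with both the set and the population. The luminal sum was higher in 231:TKO untreated and lower with siRNA. The part of the marker lists in the differences below was not tested.

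Levels of different genes were compared in TPM, which divides the counts by gene length before scaling each library to the same total. ERRFI1 had the highest TPM of the 10 genes in all 6 conditions, at 607 ± 16.3 (SD, n = 2) in parental 231 and 228 ± 10.2 (n = 3) in 231:TKO+siNT. Second came EGFR in the untreated cells, at 232 ± 3.39 TPM in parental 231 and 172 ± 16.4 in 231:TKO, where its replicates overlapped those of TGFA. Second came AREG in the 4 siRNA groups, at means of 101.6 to 209.7 TPM, above HBEGF or EGFR with no overlap of replicates. The lowest 2 places were held by ERBB3 and BTC in 5 conditions and by ERBB3 and NRG1 in 231:TKO+siMyc. The TPM of ERBB3 rests on a gene length that changed from 8837 to 11711 bases between the annotation releases. That of EGFR changed from 12515 to 12507, and 8 of the 10 genes had the same length in both. For ERBB3 and EGFR, the counts of siRNA-treated parental 231 and 231:TKO thus rest on unlike gene models. Their CPM and fold changes between these populations with siRNA carry this limit, also where the siNT set is compared with the untreated set.

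AREG made up 12.8% ± 1.38 (SD, n = 2) of the summed TPM of the 6 ligands in parental 231 and 25.8% ± 1.47 in 231:TKO. With siRNA, its share was 51.0% ± 3.32 (n = 3) in parental 231+siNT, 39.6% ± 2.24 in 231:TKO+siNT, 48.0% ± 4.47 in parental 231+siMyc and 36.2% ± 1.21 in 231:TKO+siMyc. HBEGF and TGFA, which led the ligands in parental 231 with 35.6% and 41.2%, held 23.1% and 18.4% in parental 231+siNT. Untreated and siRNA libraries differ in treatment and in read type, so these shares are given side by side without a test.

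**Figure D1:**
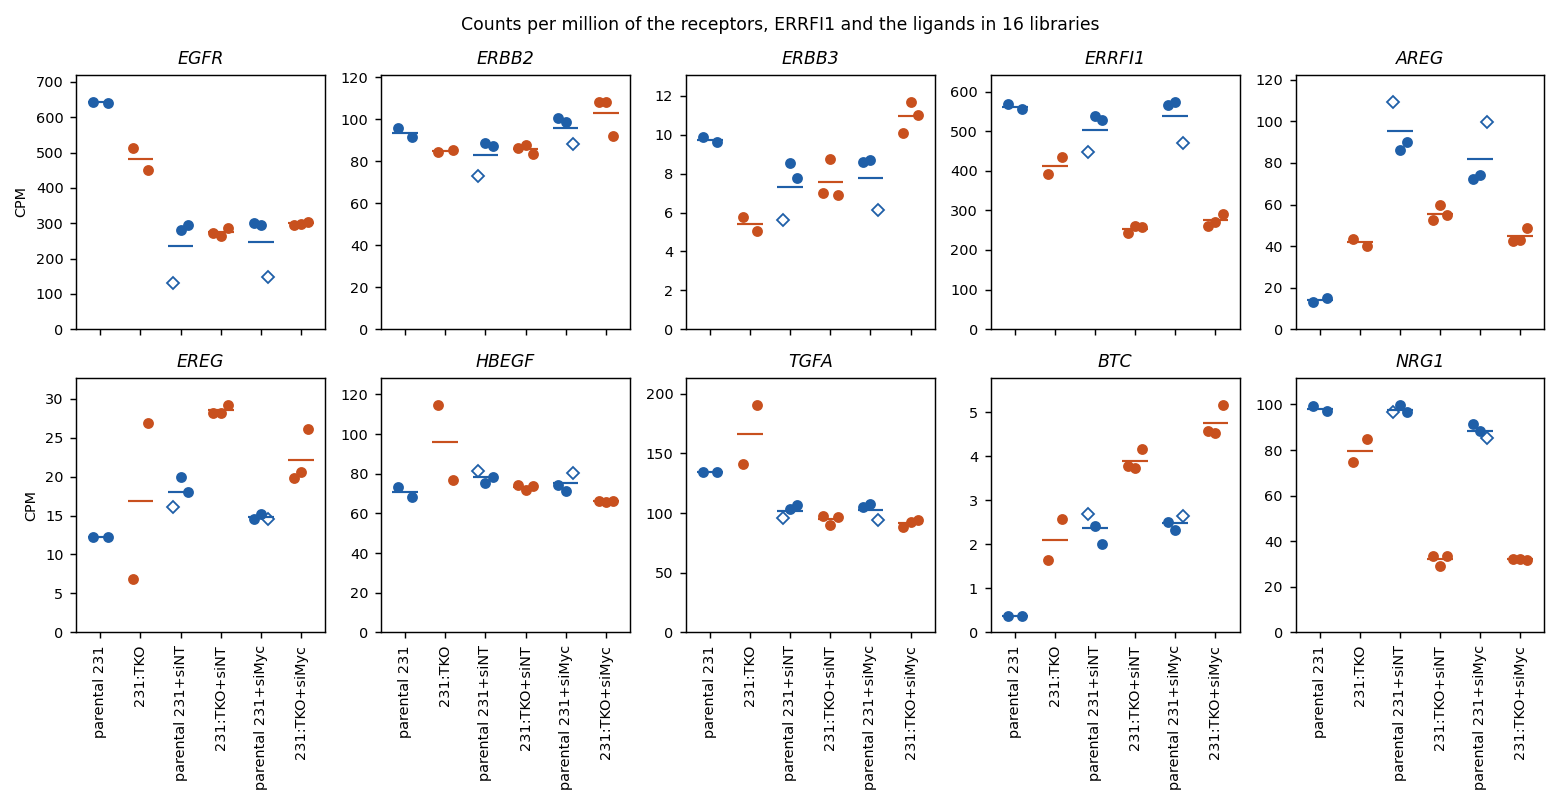
CPM (y axis, linear from 0) of the 10 genes in each of the 16 libraries, by condition (x axis), with parental 231 in blue and 231:TKO in orange. Points are libraries, lines are group means, and open diamonds are parental 231+siNT replicate 1 and parental 231+siMyc replicate 3, in which EGFR was at 130 and 147 CPM while the other libraries of these groups were at 282 to 302.

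Of the ligand genes, 3 lie close together on chromosome 4 of GRCh38: EREG (ENSG00000124882) at 74365145 to 74388749 and AREG (ENSG00000109321) at 74445136 to 74455005, both on the plus strand, and BTC (ENSG00000174808) at 74744759 to 74794523 on the minus strand. They are shown by their promoters because they share a region and yet moved differently below. RefSeq promoters (GRCh38.p14) were found for 8 of the 10 members, in 10 entries, and the 250 bases before each start were searched on both strands. Capitals mark the CRE letters TGACGTCA and the TATA box letters TATAAA in the promoters of EREG (chr4:74364895-74365144, plus strand), AREG (chr4:74444886-74445135, plus strand) and BTC (chr4:74794524-74794773, minus strand), each given 5′ to 3′ on the strand of its gene.
EREG: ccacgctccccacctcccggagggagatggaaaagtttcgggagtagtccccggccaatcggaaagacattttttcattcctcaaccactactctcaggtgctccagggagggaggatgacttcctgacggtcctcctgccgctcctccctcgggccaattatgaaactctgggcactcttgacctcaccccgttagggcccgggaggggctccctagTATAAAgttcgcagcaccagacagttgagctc
AREG: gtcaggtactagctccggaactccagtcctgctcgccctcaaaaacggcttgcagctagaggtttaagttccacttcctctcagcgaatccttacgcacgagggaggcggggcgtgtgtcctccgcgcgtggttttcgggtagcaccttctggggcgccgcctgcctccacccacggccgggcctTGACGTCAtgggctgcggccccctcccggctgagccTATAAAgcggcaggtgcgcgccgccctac
BTC: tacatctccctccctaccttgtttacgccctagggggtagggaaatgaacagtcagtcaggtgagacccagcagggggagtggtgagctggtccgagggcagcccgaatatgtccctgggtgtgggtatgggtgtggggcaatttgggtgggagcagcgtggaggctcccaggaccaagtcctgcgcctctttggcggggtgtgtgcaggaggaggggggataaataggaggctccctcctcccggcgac

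The AREG window held TGACGTCA 65 bases and TATAAA 29 bases before the start, and the EREG window held TATAAA 32 bases before the start. An EGFR entry that lies inside the gene (chr7:55109589-55109838), not shown, held TATAAA 146 and 36 bases before its start. The EGFR entry directly before the gene start (chr7:55018767-55019016) held none of the 4 motifs searched. TGACGTCA occurs in 1.65% and TATAAA in 10.7% of the 35116 promoters of the same length. The BTC window held none of the 4 motifs searched. The E-box letters CACGTG, which Myc is known to bind, were in 0 of the 10 member entries and in 6.35% of all promoters. The AP-1 letters TGANTCA were in the EGFR entry inside the gene and in the entry of ERBB2, and in 6.57% of all promoters. A match describes letters and is not a binding site, and no match says only that the letters are not in the window.

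The first comparison asks what differs without TXNIP in untreated cells. Of the 10 genes, AREG and BTC were higher and ERBB3 and ERRFI1 were lower in 231:TKO than in parental 231. The remaining 6 missed the threshold of 0.05 for p-values from the edgeR quasi-likelihood test, adjusted over all genes by the Benjamini-Hochberg method. TXNIP, the deleted gene, missed it too, with a log2 fold change of -3.29 ± 0.65 (standard error, edgeR adjusted p = 0.0587). A missed threshold in this comparison is therefore no sign of an unchanged level. The 4 called members stand beside 9.61% of all 19965 genes tested. The median log2 fold change was 0.12 over the members and 0.0048 over all genes tested.

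EGFR (ENSG00000146648; chromosome 7, 55019017 to 55211628, plus strand) was at 644 and 641 CPM in parental 231 and at 514 and 450 in 231:TKO. The groups did not overlap, and the difference of -0.37 ± 0.083 on the log2 scale (standard error) had an adjusted p of 0.0564 by edgeR's quasi-likelihood test, while DESeq2, and edgeR with no filter on low counts, called it. ERBB2 (ENSG00000141736; chromosome 17, 39687914 to 39730426, plus strand) was at 95.8 and 91.5 CPM in parental 231 and at 84.3 and 85.5 in 231:TKO, a log2 difference of -0.10 with a 95% interval from -0.26 to 0.059. ERBB3 (ENSG00000065361; chromosome 12, 56076799 to 56103505, plus strand), which carries a weak kinase and signals through its partners to PI3 kinase, was at 9.87 and 9.61 CPM in parental 231 and at 5.75 and 5.03 in 231:TKO. Of the 3 receptors, only ERBB3 passed the test, with a log2 fold change of -0.81 ± 0.16 (edgeR adjusted p = 0.0392).

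ERRFI1 (ENSG00000116285; chromosome 1, 8004404 to 8026309, minus strand) was at 568 and 556 CPM in parental 231 and at 391 and 433 in 231:TKO. It was 1.33-fold lower without overlap (log2 fold change -0.41 ± 0.072, edgeR adjusted p = 0.0334).

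AREG, which encodes amphiregulin, was at 13.0 and 15.01 CPM in parental 231 and at 43.6 and 40.0 in 231:TKO. Both 231:TKO libraries lay far above both parental 231 libraries, 3.07-fold on average (log2 fold change 1.62 ± 0.11, edgeR adjusted p = 0.0051). BTC, which encodes betacellulin, was near the limit of detection in parental 231, at 0.369 and 0.363 CPM from 7 counts in each library, which have exact (Clopper-Pearson) 95% intervals from 0.148 to 0.761 and from 0.146 to 0.749 CPM. In 231:TKO it was at 1.64 and 2.57 CPM, 5.83-fold higher (log2 fold change 2.54 ± 0.38, edgeR adjusted p = 0.022). These intervals cover counting error only.

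The other 4 ligands did not pass the test, and for 3 of them the 231:TKO replicates lay far apart. EREG, which encodes epiregulin, was at 12.2 and 12.3 CPM in parental 231 and at 6.85 and 26.9 in 231:TKO, on either side of parental 231. HBEGF (ENSG00000113070; chromosome 5, 140332843 to 140346603, minus strand), the heparin-binding ligand, was at 73.2 and 68.1 CPM in parental 231 and at 115 and 77.0 in 231:TKO. TGFA (ENSG00000163235; chromosome 2, 70447284 to 70554193, minus strand), the transforming growth factor alpha gene, was at 134 and 135 CPM in parental 231 and at 142 and 191 in 231:TKO. HBEGF and TGFA were thus above parental 231 in both 231:TKO libraries, with intervals of the log2 difference from -0.066 to 1.03 and from -0.049 to 0.74. NRG1 (ENSG00000157168; chromosome 8, 31639222 to 32855666, plus strand), the neuregulin gene, was at 99.5 and 96.9 CPM in parental 231 and at 74.6 and 85.0 in 231:TKO, a log2 difference of -0.26 ± 0.083 (edgeR adjusted p = 0.129).

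The genes around AREG, EREG and BTC were also higher in untreated 231:TKO. Of 39 other genes with a mean above 1 CPM between 60 and 80 Mb of chromosome 4, 18 were higher and 2 lower by edgeR's adjusted p, with a median log2 fold change of 0.41. After each library's shift was taken out in windows of 20 Mb, the log2 fold change of AREG was 1.17 and that of BTC 2.098, both still past the threshold, and that of EREG was 0.051. The part of this regional shift in the ligands' change was not tested further. With these offsets EGFR and TGFA passed as well (edgeR adjusted p = 0.0363 and 0.00723), so that 6 members were called, beside 1839 genes. Without parental 231 replicate 1 or replicate 2, no member and no gene was called by edgeR. Without 231:TKO replicate 1 the count of members was 8, and without 231:TKO replicate 2 it was 9, while the genes called rose from 1919 to 7002 and 6797. The difference of EREG was then -0.80 on the log2 scale without 231:TKO replicate 2 and 1.16 without replicate 1.

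The same question was asked of the siNT-treated cells, with 3 replicates on each side. EREG and BTC were higher and AREG, NRG1 and ERRFI1 were lower in 231:TKO+siNT than in parental 231+siNT. These 5 members stand beside 36.8% of all 23310 genes tested, and the median log2 fold change was -0.089 over the members and -0.029 over all genes.

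AREG was at 109, 86.4 and 90.3 CPM in parental 231+siNT and at 52.3, 59.6 and 55.0 in 231:TKO+siNT. All 231:TKO libraries were lower here, 1.79-fold on average (log2 fold change -0.84 ± 0.11, edgeR adjusted p = 0.000131). NRG1 was at 96.8, 99.8 and 96.7 CPM in parental 231+siNT and at 33.4, 29.3 and 33.3 in 231:TKO+siNT. This 3.19-fold lower level was the largest difference of a member under siNT, and the groups were far from overlapping (log2 fold change -1.67 ± 0.091, edgeR adjusted p = 1.56e-07).

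EREG was at 16.1, 19.998 and 18.05 CPM in parental 231+siNT and at 28.2, 28.2 and 29.2 in 231:TKO+siNT, a log2 fold change of 0.60 ± 0.10 (edgeR adjusted p = 0.000869). BTC was at 2.68, 2.42 and 1.99 CPM in parental 231+siNT and at 3.78, 3.74 and 4.16 in 231:TKO+siNT, a log2 fold change of 0.66 ± 0.15 (edgeR adjusted p = 0.00615). Both were higher in every 231:TKO+siNT library than in any parental 231+siNT library. HBEGF lay between 75.5 and 81.2 CPM in parental 231+siNT and between 71.6 and 74.4 in 231:TKO+siNT, and TGFA between 96.0 and 107 and between 90.1 and 97.5. Their log2 differences of -0.16 ± 0.084 and -0.17 ± 0.088 did not pass the test.

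ERRFI1 was at 446, 537 and 528 CPM in parental 231+siNT and at 242, 261 and 258 in 231:TKO+siNT, 2.08-fold lower (log2 fold change -1.05 ± 0.098, edgeR adjusted p = 1.06e-05). The receptors overlapped between the groups. EGFR was at 130, 282 and 295 CPM in parental 231+siNT and at 272, 263 and 287 in 231:TKO+siNT. Its log2 difference was 0.15 with an interval from -0.46 to 0.77, and -0.12 without parental 231+siNT replicate 1. ERBB2 and ERBB3 differed by -0.015 and -0.016, with intervals from -0.23 to 0.20 and from -0.38 to 0.35, and both signs changed under DESeq2's size factors. Without parental 231+siNT replicate 1, TGFA was called in addition and the count of members was 6, while the genes called rose from 8578 to 10875.

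Under siMyc, 7 members were called between 231:TKO and parental 231, beside 40.6% of all 23561 genes tested. AREG, HBEGF, NRG1 and ERRFI1 were lower, beside 21.7% of all genes, and ERBB3, EREG and BTC were higher, beside 18.8%. This comparison shares no library with that under siNT. The median log2 fold change was -0.11 over the members and -0.010 over all genes.

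NRG1 was at 91.4, 88.3 and 85.2 CPM in parental 231+siMyc and at 32.4, 32.2 and 31.7 in 231:TKO+siMyc, 2.92-fold lower (edgeR adjusted p = 2.63e-08). ERRFI1 was at 567, 574 and 470 CPM in parental 231+siMyc and at 262, 271 and 291 in 231:TKO+siMyc, with a log2 fold change of -1.05 ± 0.10. AREG was at 72.5, 74.0 and 99.8 CPM in parental 231+siMyc and at 42.6, 42.9 and 48.9 in 231:TKO+siMyc, with a log2 fold change of -0.96 ± 0.13. In none of these 3 genes did a library of one group reach the other.

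BTC was at 2.51, 2.33 and 2.64 CPM in parental 231+siMyc and at 4.56, 4.52 and 5.16 in 231:TKO+siMyc, 1.80-fold higher. EREG was at 14.5, 15.1 and 14.6 CPM in parental 231+siMyc and at 19.8, 20.6 and 26.1 in 231:TKO+siMyc, 1.42-fold higher. ERBB3 was at 8.58, 8.68 and 6.12 CPM in parental 231+siMyc and at 10.1, 11.7 and 11.0 in 231:TKO+siMyc. Its log2 fold change of 0.40 ± 0.14 had an edgeR adjusted p of 0.0336, the weakest of the 7 calls, beside 0.0287 for HBEGF with a log2 fold change of -0.27 ± 0.091. EGFR was at 302, 296 and 147 CPM in parental 231+siMyc and between 296 and 303 in 231:TKO+siMyc, and its log2 difference was 0.19, or -0.086 without parental 231+siMyc replicate 3. Without that library TGFA was called in addition and the count of members was 8, while the genes called rose from 9558 to 11354. The calls of ERBB3 and HBEGF both ended without 231:TKO+siMyc replicate 1, 2 or 3, which left 5 members beside 7662, 7504 and 7353 genes. That of HBEGF also ended without parental 231+siMyc replicate 1. With only genes of the same length in both releases, ERBB3 and EGFR were left out, and 6 members and 8945 genes were called.

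**Figure D2:**
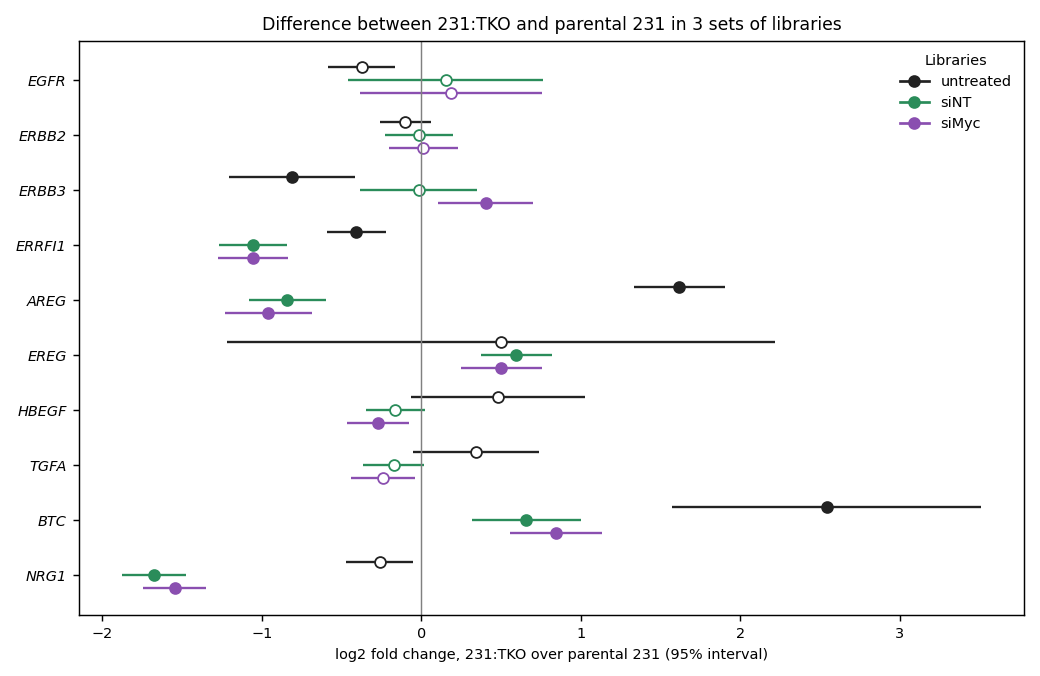
Log2 fold change between 231:TKO and parental 231 (x axis) of the 10 genes (y axis) in untreated, siNT and siMyc libraries, with 95% intervals from edgeR's quasi-likelihood fit. Filled points have an adjusted p of at most 0.05. AREG lies at 1.62 in untreated cells and at -0.84 and -0.96 with siRNA, while BTC is above 0 and ERRFI1 below 0 in all 3.

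Whether the difference between 231:TKO and parental 231 itself differed between the siNT-treated and the untreated cells was tested in 1 fit of 10 libraries. It was lower under siNT for 6 members and higher for none, beside 14.1% of all 25112 genes called in either direction and 7.91% called lower. Read type differs between the sets, and in the siNT set the populations also differ in the number in the count headers. The labels do not say whether both sets of 231:TKO cells were the same clone. The siRNA and these differences cannot be told apart. AREG had the largest change, with a difference of -2.47 ± 0.18 on the log2 scale (edgeR adjusted p = 7.03e-07). Its level turned from 3.07-fold higher to 1.79-fold lower in 231:TKO, with the larger change of level in parental 231, which was at 13.0 and 15.01 CPM untreated and at 86.4 to 109 CPM with siNT, while 231:TKO was at 40.0 and 43.6 and at 52.3 to 59.6.

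NRG1 differed by -1.42 ± 0.14 (edgeR adjusted p = 1.45e-05). For this gene 231:TKO was the side that differed, at 74.6 and 85.0 CPM untreated and at 29.3 to 33.4 with siNT, while parental 231 was at 96.7 to 99.8 in all 5 libraries. BTC differed by -1.89 ± 0.41, ERRFI1 by -0.65 ± 0.15, HBEGF by -0.65 ± 0.19 and TGFA by -0.52 ± 0.17, with edgeR adjusted p-values of 0.00636, 0.00758, 0.0349 and 0.0498. BTC kept the direction of its difference and ERRFI1 kept its own. EREG, with a difference of 0.097 and an interval from -1.48 to 1.67, could not be placed because of the spread in untreated 231:TKO. ERBB3 came close to the threshold from the other side, with 0.80 ± 0.26 (edgeR adjusted p = 0.0546). Without parental 231 replicate 2, AREG and NRG1 were the 2 members called.

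The siRNA against Myc was compared with siNT within 231:TKO cells to ask which genes respond to lower Myc. ERBB2 and ERBB3 rose and the ligands AREG, EREG and HBEGF fell, all by at most 1.44-fold. These 5 members stand beside 27.2% of all 22450 genes tested. The median log2 fold change was 0.048 over the members and 0.0069 over all genes.

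ERBB3 rose most, from 6.98, 8.76 and 6.90 CPM in 231:TKO+siNT to 10.1, 11.7 and 11.0 in 231:TKO+siMyc, with no overlap. This was a log2 fold change of 0.53 ± 0.10 (edgeR adjusted p = 0.000349). ERBB2 rose from 86.1, 87.9 and 83.3 CPM to 108, 108 and 92.1, a log2 fold change of 0.25 ± 0.061 (edgeR adjusted p = 0.00329). Replicate 3 of 231:TKO+siMyc lay closer to the siNT libraries than to the other two. EGFR was at 263 to 287 CPM with siNT and at 296 to 303 with siMyc without overlap, and its log2 difference of 0.12 ± 0.047 had an edgeR adjusted p of 0.0757.

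AREG fell by 0.32 ± 0.066 on the log2 scale and EREG by 0.37 ± 0.083 (edgeR adjusted p = 0.000766 and 0.00169). For both genes replicate 3 of 231:TKO+siMyc, at 48.9 and 26.1 CPM, was the closest to the siNT libraries, whose lowest values were 52.3 and 28.2. HBEGF fell by 0.16 ± 0.052 on the log2 scale (edgeR adjusted p = 0.0279), from 71.6 to 74.4 CPM down to 65.7 to 66.5. Its call ended without 231:TKO+siNT replicate 1 or 3 or 231:TKO+siMyc replicate 1 or 2. BTC had a log2 difference of 0.28 ± 0.12 without overlap and an edgeR adjusted p of 0.0835. The difference was -0.056 for TGFA, -0.0074 for NRG1 and 0.10 for ERRFI1, and none passed. In 1 fit of all 12 siRNA libraries, whose spread includes the parental 231 libraries, ERBB3 alone of the members was called, beside 2493 genes.

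In parental 231 cells no member passed for siMyc against siNT by edgeR, beside 0.594% of all 23728 genes tested. At an unadjusted p under 0.05 there were 1 member (EREG) and 3462 genes, and DESeq2 called 0 members and 1110 genes. The interval of EGFR ran from -0.70 to 0.89 on the log2 scale, since 1 library of each group, at 130 and 147 CPM, held less than the rest, at 282 to 302. AREG was high in these same 2 libraries, at 109 and 99.8 CPM against 72.5 to 90.3.

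Without these 2 libraries, a choice made after the values were seen, 3 members passed in parental 231 with 2 replicates a group, while the genes called rose from 141 to 4673. The log2 fold change was 0.20 ± 0.047 for ERBB2, -0.25 ± 0.051 for AREG and -0.34 ± 0.076 for EREG (edgeR adjusted p = 0.00656, 0.00266 and 0.00536). With all 6 libraries and a factor for the 2, 6363 genes were called by edgeR, among them 6 members: EGFR, ERBB2 and ERRFI1 higher and AREG, EREG and NRG1 lower, with log2 differences of 0.11, 0.24, 0.11, -0.20, -0.27 and -0.13.

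**Figure D3:**
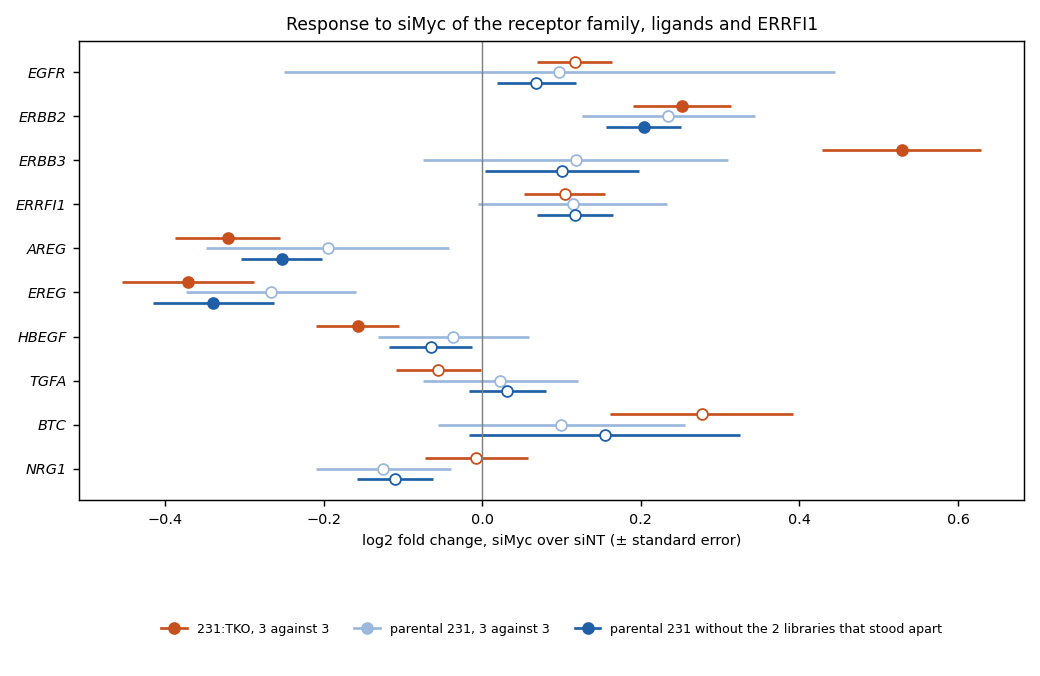
Log2 fold change of siMyc over siNT (x axis, lines are ± 1 standard error) of the 10 genes (y axis) in 231:TKO (orange), in parental 231 (light blue) and in parental 231 without the 2 libraries that stood apart (dark blue). Filled points have an adjusted p of at most 0.05 by edgeR. ERBB2 lies above 0 and AREG and EREG below 0 in all 3 sets.

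The responses to siMyc in the 2 populations were compared directly in 1 fit of the 12 siRNA libraries. No member and none of 25812 genes differed by edgeR's adjusted p (0% called). At an unadjusted p under 0.05 there were 0 members and 1039 genes, and DESeq2 called 0 members and 6 genes. ERBB3 had the largest difference of a member, 0.44 with an interval from -0.043 to 0.92 on the log2 scale. For AREG the interval ran from -0.46 to 0.27, for EREG from -0.40 to 0.25 and for ERBB2 from -0.24 to 0.33, each of which takes in a difference as large as the response of the gene in 231:TKO. With a factor for the 2 libraries, ERBB3 stood at 0.44 ± 0.13 (edgeR adjusted p = 0.121).

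Other genes of the pathway were grouped in lists by role, of which 50 to 52 of 54 were tested in the comparisons that follow. Among 16 immediate early and feedback genes, which EGFR and MAP kinase signaling induce, 4 were higher and 1 lower in untreated 231:TKO, beside 5.43% and 4.18% of all genes. FOSL1, an AP-1 subunit, rose by 0.80 ± 0.081 on the log2 scale and DUSP4, a MAP kinase phosphatase, fell by 0.65 ± 0.058 (edgeR adjusted p = 0.0106 and 0.00856). Without 231:TKO replicate 1 the counts were 6 higher and 4 lower, and without replicate 2 they were 9 and 3, in fits that called 7002 and 6797 genes in place of 1919. Under siNT, 2 of the 16 were higher and 10 lower in 231:TKO, beside 16.1% and 20.7% of all genes, and the median log2 fold change of the list was -0.30.

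DUSP6, a phosphatase that inactivates ERK, lay at 447 to 471 CPM in parental 231+siNT and at 125 to 126 in 231:TKO+siNT, a 3.86-fold lower level (edgeR adjusted p = 2.11e-08). In untreated cells it lay at 117 to 118 CPM in parental 231 and at 119 to 156 in 231:TKO, which did not pass. EGR1, an early response transcription factor, was at 7.22 to 8.87 CPM in parental 231+siNT and at 2.36 to 3.06 in 231:TKO+siNT. FOSL1 was higher in 231:TKO here too, with 392 to 414 CPM against 177 to 206. The interaction test called 9 of the 16 genes lower and none higher under siNT than untreated, beside 7.91% and 6.2% of all genes, and 6 lower without 231:TKO replicate 1. Under siMyc, 2 were higher and 10 lower in 231:TKO, beside 18.8% and 21.7% of all genes, with DUSP6 3.97-fold and EGR1 3.91-fold lower. In 231:TKO, siMyc lowered 7 and raised 1 of the 16, beside 13.9% and 13.3% of all genes, where EGR1 fell by 0.78 and IER3 fell by 0.38 on the log2 scale. This comparison shares the 231:TKO+siNT libraries with that under siNT. In parental 231, EGR1 lay at 5.71 to 6.34 CPM with siMyc against 7.22 to 8.87 with siNT. IER3 lay there at 536 to 732 CPM with siMyc against 661 to 840 with siNT. None of the 16 passed the test for siMyc in parental 231, beside 0.594% of all genes. Without the 2 parental 231 libraries that stood apart, 2 were called higher and 5 lower. With a factor for these 2 libraries the counts were again 2 and 5. These fits, chosen after the values were seen, called 4673 and 6363 genes.

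Among 6 genes of ligand shedding, ADAM10 was higher and ADAM17 and RHBDF2 were lower in untreated 231:TKO, beside 5.43% and 4.18% of all genes. The median log2 fold change of the list was -0.30. It was -0.47 without 231:TKO replicate 1 and -0.16 without 231:TKO replicate 2. ADAM17, the protease that releases AREG and TGFA, fell by 0.54 ± 0.10 on the log2 scale (edgeR adjusted p = 0.0371), and RHBDF2, which carries it to the cell surface, fell by 0.49 ± 0.079. Under siNT, 2 of the 6 were higher and 1 lower in 231:TKO, beside 16.1% and 20.7% of all genes. ADAM17 was instead higher by 0.41 ± 0.10 and FRMD8 was higher by 0.63 ± 0.087. TIMP3, which blocks these proteases, was lower with a log2 fold change of -1.24 ± 0.098. TIMP3 lay at 1037 to 1245 CPM in parental 231+siNT and at 481 to 532 in 231:TKO+siNT. With siMyc, TIMP3 rose in 231:TKO by 0.64 ± 0.047 and RHBDF1 by 0.42 ± 0.073. In parental 231, TIMP3 lay at 1476 to 1695 CPM with siMyc against 1037 to 1245 with siNT. RHBDF1 lay there at 35.3 to 39.5 CPM with siMyc against 26.8 to 37.2 with siNT. None of the 6 genes passed the test for siMyc in parental 231, beside 0.594% of all genes. Without the 2 parental 231 libraries that stood apart, 5 of the 6 were called higher, in a fit that called 4673 genes. With a factor for these 2 libraries all 6 were called higher, in a fit that called 6363 genes. Both fits were chosen after the values were seen.

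Of 12 genes linked to receptor downregulation, 5 were higher and 2 lower in 231:TKO under siNT, beside 16.1% and 20.7% of all genes. The list does not separate genes that promote downregulation from genes that oppose it. LRIG1, which promotes the breakdown of EGFR family receptors, was higher by 1.04 ± 0.15 on the log2 scale and UBASH3B lower with a log2 fold change of -0.79 ± 0.13. In untreated 231:TKO, SH3KBP1, which takes part in the uptake of receptors into the cell, was at 277 and 282 CPM against 141 and 148 in parental 231. LRIG1 lay at 0.416 and 44.9 CPM in the 2 untreated 231:TKO libraries and at 42.0 and 42.2 in parental 231. Among the adaptors and effectors, PIK3R1, a regulatory subunit of PI3 kinase, was higher in 231:TKO under siNT (log2 fold change 0.96 ± 0.14) and HRAS was lower (-0.79 ± 0.12).

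Of the 6 further receptor and ligand genes, ERBB4, EPGN, NRG3 and NRG4 were at 0.212 CPM or less in every library. EGF and NRG2 were detected. EGF lay at 0.208 and 0.580 CPM in parental 231, at 0.869 and 2.32 in 231:TKO, at 1.72 to 2.76 in parental 231+siNT and at 9.51 to 10.6 in 231:TKO+siNT. It was 4.24-fold higher in 231:TKO under siNT and 4.15-fold higher under siMyc (edgeR adjusted p = 2.92e-06 and 1.47e-07), and its untreated difference had an edgeR adjusted p of 0.162. NRG2 lay at 0.158 to 0.301 CPM in the 4 untreated libraries and at 2.80 to 7.46 in the 12 siRNA libraries, where it was 1.93-fold higher in 231:TKO under siNT. ERBB4 was listed as lower in 231:TKO under siMyc, at 0 to 0.0289 CPM against 0.0502 to 0.212, where 3 counts correspond to 0.0502 to 0.0866 CPM.

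**Figure D4:**
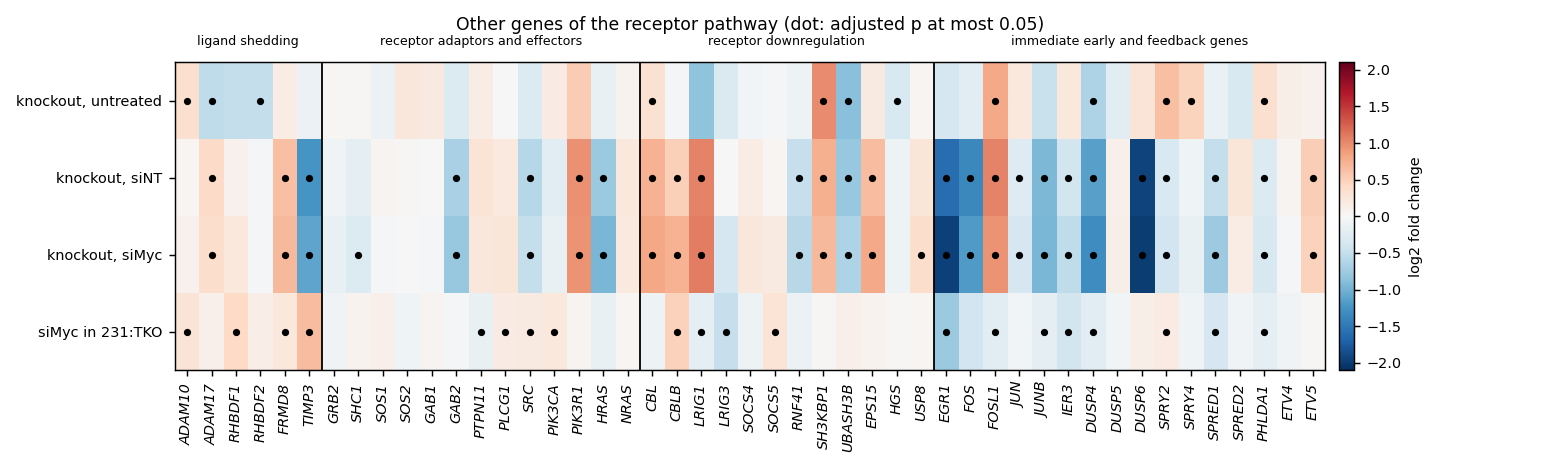
Log2 fold changes (color) of genes of 4 pathway lists (x axis) in the 3 comparisons of 231:TKO with parental 231 and in the comparison of siMyc with siNT in 231:TKO (y axis); dots mark an adjusted p of at most 0.05 by edgeR. DUSP6 and EGR1 are among the darkest blue squares under siNT and siMyc, and 10 of the 16 immediate early and feedback genes are lower there.

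As a description of pattern, the genes most like each member were sought over the 12 siRNA libraries among 13475 genes with a mean of at least 1 CPM. These libraries fall into 4 groups, so a high correlation can arise from group means alone. NRG1 was most like PLA2G4A and ASRGL1 (Pearson's r of log2 CPM 0.998 and 0.997), ERRFI1 like ARHGAP24 and SMARCA1 (0.996 and 0.995), and EGFR like ADCY9 and HIVEP1 (both 0.994). For AREG they were NABP2 and NOL7 (both 0.989), for EREG CARNMT1 and BCAT1 (0.982 and 0.981), and for BTC ZMIZ1-AS1 (0.988). ERBB3 had the lowest values, with GPR176 and SATB1 at 0.961. ERBB2 was most like MGAT5B and TOM1L2, HBEGF like SLC25A3 and the pseudogene RPS18P5, and TGFA like FYTTD1 and MAN2A1, with r between 0.968 and 0.983.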

How the data were processed

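Per the labels, the 16 libraries came from MDA-MB-231 cells in 6 conditions. The study calls the untreated and the 231:TKO siRNA replicates biological; for the other groups p-values may measure technical spread only. The authors aligned stranded mRNA reads to GRCh38 with STAR (version not given in the sources used here) and deposited raw counts per gene from featureCounts 1.6.3, without normalization, on Ensembl release 102, or 104 for the parental 231 siRNA libraries.

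Genes with more than 5 counts over the libraries of a comparison entered the test of edgeR 4.0.16, run under R 4.3.3 (quasi-likelihood test, TMM factors 0.951 to 1.044, no covariate, Benjamini-Hochberg over all genes, adjusted p at most 0.05). Fold changes use TMM scaling, and the CPM of single libraries do not. A floor of 3 counts and 95% intervals were used for counting error. Steps were tested on simulated data.

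The members and lists were chosen with earlier results of these data known. All members are named. Pathway genes are named if called without overlap of replicates and if their mean reached 1 CPM, at most the 2 largest per list and comparison; ADAM10, ADAM17 and FOSL1 under siNT, ERBB4, EPGN, NRG3, NRG4 and the untreated values of LRIG1 and DUSP6 were added after their values were seen. Genes alike in pattern are the 2 highest Pearson correlations of log2 CPM, and a few genes that the rules name are not reported here. Alternatives were DESeq2 1.42.0, its size factors, other filters and thresholds, a replicate block, window offsets, the 12-library fit, genes of equal length in both releases, and each library left out. Symbols were found for 58658 identifiers. Figures used matplotlib 3.10.9. The genome files at hand were of another build and were not used.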

Additional observations from a re-analysis of the deposited data

Results flagged for a closer look

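For 6 of the 10 genes the difference between 231:TKO and parental 231 was itself different in siNT-treated and in untreated cells, by the interaction contrast of edgeR's quasi-likelihood test over 10 libraries. On the log2 scale the difference under siNT minus that in untreated cells was -2.47 for AREG, -1.89 for BTC, -1.42 for NRG1, -0.65 for ERRFI1, -0.65 for HBEGF and -0.52 for TGFA. AREG changed sign between the sets. HBEGF and TGFA were the weakest calls, with edgeR adjusted p of 0.0349 and 0.0498. Their untreated 231:TKO replicates lay apart, at 77.0 and 115 CPM for HBEGF and at 142 and 191 for TGFA. Leaving out 1 library moved the difference from -0.91 to -0.32 for HBEGF and from -0.71 to -0.29 for TGFA. The siRNA, the read type and the number in the count headers differ between these sets. The labels do not say whether both sets of 231:TKO cells were the same clone. These differences cannot be told apart. Groups hold 2 or 3 libraries, so no search for a single outlying value within a group was made.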

How the results depend on the processing

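Of the 27 member differences called by edgeR in the 7 comparisons, none changed sign in 428 values under the alternatives tried. These values include those at the stricter adjusted p and at the fold change limit, which reuse the main fit and cannot change sign. Among differences that were not called, 52 values changed sign, most of them near 0. Where no cause is given here, the cause was not tested.

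In untreated cells, 4 members were called, 5 (EGFR added) by DESeq2 or with no filter on low counts, 1 (AREG) at an adjusted p of at most 0.01 and 2 (AREG and BTC) with the replicate block. Leaving out 1 library gave 0 to 9 members, with 0 without either parental 231 replicate, 8 without 231:TKO replicate 1 and 9 without 231:TKO replicate 2, and the difference of EREG ran from -0.80 to 1.16. The lone library is then assumed to vary like the other group. For siMyc in 231:TKO the 5 calls became 1 (ERBB3) with a log2 fold change of at least 0.5, and 1 in 1 fit of the 12 siRNA libraries. For siMyc in parental 231 the 0 calls became 3 without the pair of libraries that stood apart and 6 with a factor for it, both chosen after seeing the data. For the knockout difference, leaving out 1 library gave 2 to 7 members, with 2 without parental 231 replicate 2.

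Under siNT, ERBB2 and ERBB3 stood at 0.0047 and 0.0050 by DESeq2, at 0.0047 and 0.0043 with its size factors in edgeR and at 0.0071 and 0.0069 with more than 5 counts in every library, and ERBB3 at 0.059 with offsets for 20 Mb windows. Under siMyc, ERBB2 stood at -0.028 with these offsets. NRG1 for siMyc in 231:TKO was 0.022 in the 12-library fit. ERRFI1 in the difference of the siMyc responses was -0.020 by DESeq2 and with its size factors, -0.056 with window offsets and -0.049 without the pair.

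Leaving out 1 library moved the 231:TKO difference under siNT from -0.12 to 0.38 for EGFR, from -0.079 to 0.047 for ERBB2 and from -0.16 to 0.11 for ERBB3. Under siMyc it ran from -0.086 to 0.35 for EGFR and from -0.047 to 0.086 for ERBB2. The siMyc response of NRG1 in 231:TKO ran from -0.065 to 0.024. In parental 231 the response ran from -0.20 to 0.36 for EGFR, from -0.045 to 0.26 for ERBB3, from -0.094 to 0.0015 for HBEGF, from -0.025 to 0.073 for TGFA and from -0.0015 to 0.19 for BTC. The difference of responses ran from -0.27 to 0.29 for EGFR, from -0.064 to 0.12 for ERBB2, from -0.26 to 0.010 for AREG, from -0.21 to 0.0025 for EREG and from -0.12 to 0.067 for ERRFI1. The knockout difference ran from -0.042 to 0.14 for ERBB2 and from -0.57 to 1.39 for EREG.

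Counts over all genes moved more. In untreated cells 1919 genes were called, 229 at an adjusted p of at most 0.01, 904 with the replicate block, 0 without either parental 231 replicate, and 7002 and 6797 without 231:TKO replicate 1 and 2. For siMyc in 231:TKO the 6106 genes became 1639 with the fold change limit and 2493 in the 12-library fit. For siMyc in parental 231 the 141 genes became 1110 by DESeq2, 91 with its size factors, 330 without a filter, 225 with more than 5 counts in every library, 0 at the stricter adjusted p or with the replicate block, 1666 in the 12-library fit, 4673 without the pair and 6363 with its factor, and 0 without parental 231+siNT replicate 2 or 3 or parental 231+siMyc replicate 1 or 2. For the difference of responses the 0 genes became 6 by DESeq2, 63 without the pair and 147 with its factor. For the knockout difference the 3544 genes became 1802 at the stricter adjusted p, and 1782 and 1758 without parental 231 replicate 1 and 2.

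The replicate numbers do not pair the samples. In 231:TKO, the deviations of same-numbered siMyc and siNT libraries correlated at -0.15, 0.13 and 0.27 across 13396 genes, and in parental 231 at -0.82, 0.64 and -0.75 across 13399 genes. With the replicate block 5 members and 8481 genes were called under siNT, and 5 members (ERBB3 and HBEGF lost) and 8182 genes under siMyc. For siMyc in 231:TKO it was 6 members (EGFR gained) and 6829 genes. For the knockout difference 6 members were called (TGFA lost, ERBB3 gained).

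Depth limits BTC most, with 7 counts in each untreated parental 231 library, where 3 counts correspond to 0.158 and 0.156 CPM.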

Other observations

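The regions around other members were also shifted. Among 105 other genes with a mean above 1 CPM between 60 and 80 Mb of chromosome 2, the median log2 fold change in untreated 231:TKO was -0.23, while TGFA in that window stood at 0.34. Between 40 and 60 Mb of chromosome 7, around EGFR, the median was -0.041 over 53 genes in untreated cells and -0.28 over 52 genes under siNT, where 25 were lower and 6 higher by edgeR's adjusted p. Around ERRFI1, between 0 and 20 Mb of chromosome 1, the median was -0.14 over 181 genes under siNT.

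In the 2 parental 231 libraries that stood apart, the members moved alike. Against the mean of the other libraries of its group, EGFR was lower by a log2 ratio of -1.15 in parental 231+siNT replicate 1 and of -1.03 in parental 231+siMyc replicate 3. ERBB3 stood at -0.54 and -0.50, ERRFI1 at -0.26 and -0.28, and AREG at 0.31 and 0.45, while NRG1 stood at -0.021 and -0.077.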
